A study of Sus scrofa with 32 samples.

Results

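The genes described here are 10 components of the vascular endothelial growth factor (VEGF) and angiopoietin systems, out of 30185 genes counted. No measured value enters the rule that chose them, which goes by gene name, but the names were picked with earlier results of these data known. They are the ligands VEGFA, VEGFC, ANGPT1 and ANGPT2, the receptor tyrosine kinases FLT1, KDR, FLT4 and TEK, and the co-receptors NRP1 and NRP2. Every one of the 10 was found by its pig symbol in the NCBI annotation. RNA was sequenced from the surface or luminal epithelium (LE), the glands (GE), vessels (BV) and the stroma (S), which had been cut by laser capture microdissection from frozen endometrium of 8 synchronised gilts on Day 14. The 4 pregnant gilts (P139, P39, P41 and P43) had been inseminated with semen, and the 4 cyclic gilts (C128, C40, C42 and C78) with semen supernatant of the same boar. All gilts had received eCG and hCG, and the pregnant tissue came from the hyperemic zones where conceptuses attach, so pregnancy and site of sampling cannot be told apart. Gilts are written with C for cyclic or P for pregnant before their number. No GE values of P41 were used here, which left 31 libraries, with n = 3 in pregnant GE and n = 4 in the other 7 groups.

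In the VEGF system, VEGFA signals mainly through KDR, FLT1 binds VEGFA tightly but signals weakly, and VEGFC acts through FLT4, a receptor best known from lymphatic vessels. Neuropilins 1 and 2 bind VEGF ligands beside these kinases and are also receptors of class 3 semaphorins. ANGPT1 activates TEK and is known to keep vessels quiet and stable, and ANGPT2 mostly opposes it when vessels are remodelled. In the pig, uterine vascularity rises as conceptuses attach to the surface of the endometrium.

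Library totals ranged from 2415216 to 7081556 counts (median 3624021), and levels are given as CPM (counts scaled to a common library size) after TMM scaling over all libraries. A gene is called detectable in a compartment where the authors' filter on low CPM kept it. All 10 genes were detectable in BV and S, 9 in LE (without ANGPT1) and 5 in GE (VEGFA, ANGPT2, KDR, TEK and NRP1). The captures were not free of other cells. The summed CPM of 10 endothelial markers (among them PECAM1, CDH5 and VWF) was 1702 to 3120 in BV, 624 to 2220 in S, 116 to 857 in LE and 13.7 to 168 in GE, so RNA of endothelial cells was present in every compartment. Within the LE captures it was lowest in cyclic gilts C78 and C128 and pregnant gilt P139 (116, 311 and 370 CPM). Epithelial markers (9 genes, among them EPCAM and CDH1) summed to 3.69 to 51.8 CPM in BV of cyclic gilts and 175 to 332 CPM in BV of pregnant gilts, without overlap. In such bulk captures, fewer cells of a type and less RNA per cell cannot be told apart.

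The 250 bases just before the annotated starts of FLT1, KDR and TEK are shown because these receptors had nearly the same profile over the libraries, and that of VEGFA because its profile was another one. They were read from Sscrofa11.1 with the RefSeq gene models, 5′ to 3′ on the strand of the gene. Capitals mark the core of the hypoxia response element, ACGTG, on either strand.
FLT1, chr11:5797096-5797345, reverse strand: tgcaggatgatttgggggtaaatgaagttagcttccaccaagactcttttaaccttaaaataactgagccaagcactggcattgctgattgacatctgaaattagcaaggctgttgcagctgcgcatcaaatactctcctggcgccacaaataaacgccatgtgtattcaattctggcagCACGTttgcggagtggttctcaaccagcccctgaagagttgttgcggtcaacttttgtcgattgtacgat
KDR, chr8:41856380-41856629, reverse strand: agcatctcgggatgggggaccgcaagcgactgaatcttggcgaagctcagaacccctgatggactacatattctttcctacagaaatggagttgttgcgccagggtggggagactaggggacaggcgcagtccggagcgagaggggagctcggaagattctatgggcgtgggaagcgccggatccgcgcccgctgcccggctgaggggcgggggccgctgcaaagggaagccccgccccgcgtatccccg
TEK, chr1:196052295-196052544, reverse strand: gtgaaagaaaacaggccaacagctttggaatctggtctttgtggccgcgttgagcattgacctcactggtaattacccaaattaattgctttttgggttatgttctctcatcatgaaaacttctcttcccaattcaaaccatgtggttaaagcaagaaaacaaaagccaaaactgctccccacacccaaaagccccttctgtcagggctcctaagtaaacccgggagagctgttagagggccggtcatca
VEGFA, chr7:38746143-38746392, forward strand: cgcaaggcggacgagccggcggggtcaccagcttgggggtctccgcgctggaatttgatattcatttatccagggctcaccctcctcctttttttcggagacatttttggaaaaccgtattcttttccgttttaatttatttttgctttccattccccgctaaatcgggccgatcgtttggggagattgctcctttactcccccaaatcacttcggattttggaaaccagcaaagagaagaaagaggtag
The hypoxia core occurred 1 time before FLT1 and 0 times before the other three, and 20.8% of the 13718 promoters of this length that could be read held it. The hexamer AGGAAG, 1 form of the site of ETS factors, a family with many endothelial members, was in 0 of these 4 windows. It was in 24.4% of all promoters. Among the other 6 genes it stood 1 time before ANGPT1 and 1 time before NRP2. Other forms of that site, such as CGGAAG, which stands in the KDR window, were not counted. A window without AGGAAG is thus not a window without an ETS site. GGGCGG, the box bound by Sp1, occurred 2 times before KDR and 6 times before FLT4, and 54.4% of all promoters held at least 1. Both strands were searched for each motif. GC content was 64.8% before KDR, 45.6% before FLT1 and before TEK and 48.4% before VEGFA, with a median of 60.4% over all promoters. These matches describe letters in a short window, and an annotated start need not be the start used in endometrium.

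The first question was which compartment held the RNA of each ligand and receptor. VEGFA stood apart from the other 9 genes in being highest in LE, while ANGPT1 was highest in BV, and the 6 receptors and co-receptors had their lowest levels in GE, below each of the other compartments by the test. Of these 6, TEK, NRP1 and NRP2 were called as lower in LE than in BV, and TEK and NRP1 as lower in LE than in S. The compartments were compared within gilts, averaged over pregnant and cyclic animals, and a gene was called at a false discovery rate (FDR) under 1% in the edgeR quasi-likelihood test.

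**Figure D1:**
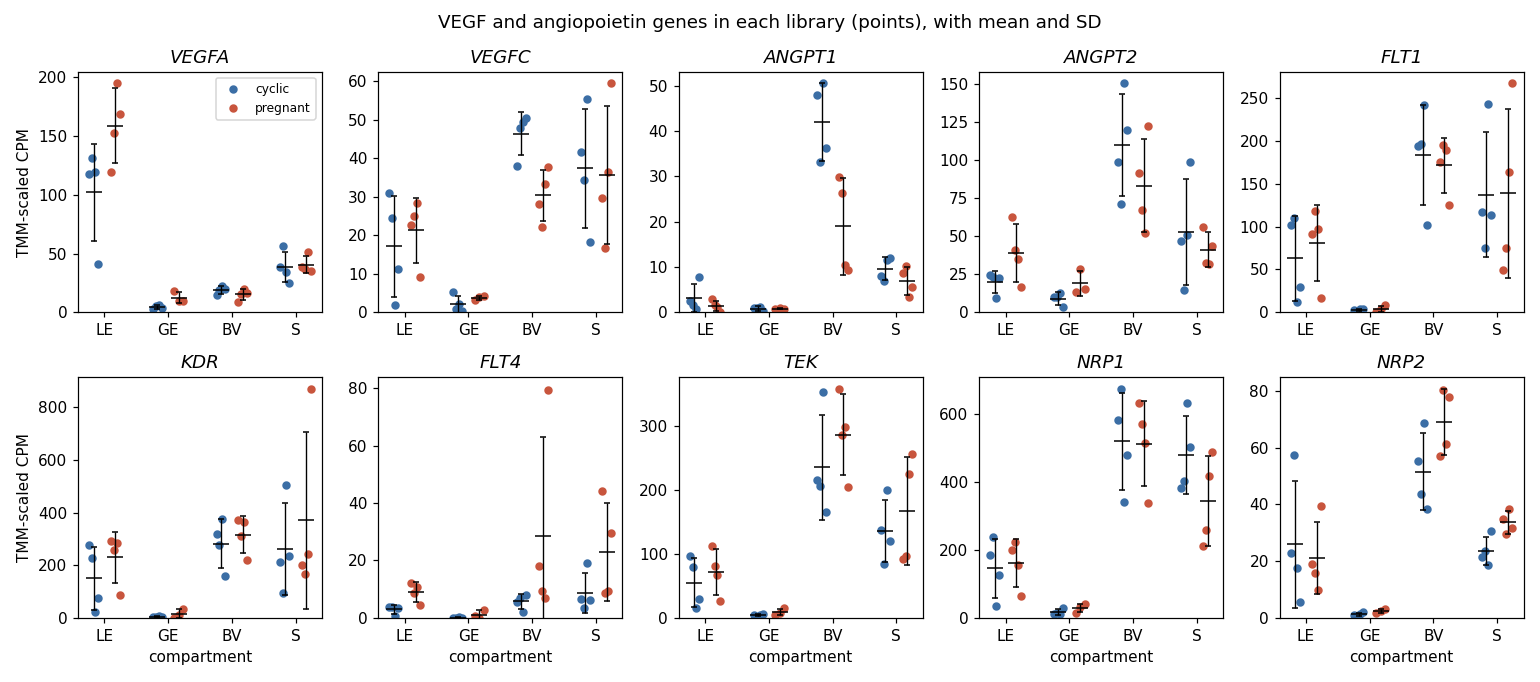
TMM-scaled CPM (y axis, a separate linear scale for each gene) of the 10 genes in LE, GE, BV and S (x axis), with 1 point a library, cyclic in blue and pregnant in red, and bars for the mean and SD. VEGFA is highest in LE, ANGPT1 in BV, and the receptors are near 0 in GE.

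VEGFA in LE was 40.9, 117, 131 and 120 CPM in cyclic gilts C128, C40, C42 and C78, and 169, 119, 152 and 195 CPM in pregnant gilts P139, P39, P41 and P43. In S it ranged from 25.3 to 56.1 CPM, in BV from 9.09 to 22.1 CPM and in GE from 3.23 to 17.8 CPM. By gilt, LE exceeded S and BV in every one of the 8 gilts and GE in all 7 with both captures. The log2 difference was 1.67 ± 0.19 (SE) for LE against S (adjusted p = 1.8e-07), -2.86 ± 0.20 for BV against LE (adjusted p = 4.3e-10) and 4.02 ± 0.23 for LE against GE (adjusted p = 5.8e-11). S was above BV in all 8 gilts, with a fitted BV against S value of -1.19 ± 0.20 (adjusted p = 0.00031). That call was lost among the 4 cyclic gilts alone (-0.975, adjusted p = 0.050) and the 4 pregnant gilts alone (-1.42, adjusted p = 0.022).

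VEGFC, the ligand of FLT4, was 22.2 to 50.4 CPM in BV, 16.7 to 59.4 CPM in S, 1.82 to 31.02 CPM in LE and 0.432 to 5.30 CPM in GE. BV and S overlapped widely, with a log2 difference of 0.11 ± 0.37. BV was higher than LE in 7 of 8 gilts, but by 1.04 ± 0.38 only (adjusted p = 0.022), which missed the threshold. In LE the lowest VEGFC values, 1.82, 9.26 and 11.2 CPM, came from the same 3 captures (cyclic C78, pregnant P139 and cyclic C128) that were lowest in endothelial markers.

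ANGPT1 reached 33.2 to 50.6 CPM in BV of cyclic and 9.30 to 29.9 CPM in BV of pregnant gilts, against 3.41 to 12.0 CPM in S, 0 to 7.76 CPM in LE and 0.216 to 1.27 CPM in GE. BV exceeded S in all 8 gilts. The log2 difference was 1.75 ± 0.31 between BV and S (adjusted p = 0.00061), 3.79 ± 0.36 between BV and LE (adjusted p = 1.8e-08) and 4.85 ± 0.43 between BV and GE (adjusted p = 3.6e-09). This call against S was lost in cyclic gilts alone (2.13, adjusted p = 0.012) and in pregnant gilts alone (1.34, adjusted p = 0.13). ANGPT1 and VEGFA were the 2 members called between BV and S, in opposite directions, where 8.3% of 12186 genes were called, 4.41% as higher in BV and 3.89% as higher in S. Without gilt C128 the count was 4 instead of 2, since ANGPT2 (1.29) and NRP2 (1.22) were then called as higher in BV. The share of all genes called without that gilt is not given here.

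ANGPT2, the context-dependent antagonist of ANGPT1, was 51.9 to 150 CPM in BV, 14.9 to 99.0 CPM in S, 9.56 to 62.7 CPM in LE and 3.24 to 28.4 CPM in GE. BV exceeded S in all 8 gilts, but the log2 difference of 1.08 ± 0.33 (adjusted p = 0.030) missed the threshold. BV was called above LE (1.76 ± 0.34, adjusted p = 0.00014). LE and GE did not pass (1.07 ± 0.38, adjusted p = 0.021), so ANGPT2 was the 1 tested member that was not called as higher in LE than in GE.

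Of the receptors, KDR and TEK had the highest levels per kilobase of exon. In BV the means were 49.3 CPM per kb for KDR, 40.4 for TEK, 22.3 for FLT1 and 2.89 for FLT4, and in S they were 52.1, 23.5, 17.4 and 2.67. In LE the means were 31.3, 9.81, 9.06 and 1.01 CPM per kb in the same order, and VEGFA itself was at 40.8. In GE no receptor kinase exceeded a mean of 1.44 CPM per kb. Among the ligands in BV, ANGPT2 averaged 10.1, ANGPT1 5.63, VEGFA 5.35 and VEGFC 5.31 CPM per kb.

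KDR, the main signalling receptor of VEGFA, was 159 to 377 CPM in BV, 94.4 to 870 CPM in S, 22.3 to 292 CPM in LE and 1.31 to 34.0 CPM in GE. BV and S differed by a log2 value of 0.11 ± 0.49, and BV and LE by 0.63 ± 0.49 (adjusted p = 0.27), although BV was higher than LE in all 8 gilts. LE and GE differed by 4.85 ± 0.66 (adjusted p = 3.3e-06). In LE, KDR was 22.3, 76.8 and 86.9 CPM in the 3 captures with the fewest endothelial markers and 226 to 292 CPM in the other 5.

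FLT1, which binds VEGFA and limits what reaches KDR, was 102 to 241 CPM in BV, 49.0 to 267 CPM in S, 12.1 to 118 CPM in LE and 0.786 to 8.26 CPM in GE. BV was higher than LE in all 8 gilts (1.30 ± 0.45, adjusted p = 0.016), short of the 1% threshold. Without the gilt block the same difference was called (1.31, adjusted p = 0.0088).

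TEK, the angiopoietin receptor, was 165 to 358 CPM in BV, 84.6 to 255 CPM in S, 15.7 to 112 CPM in LE and 2.02 to 14.8 CPM in GE. It was called as higher in BV than in LE (2.04 ± 0.37, adjusted p = 7.2e-05), and it was above S in 7 of 8 gilts without a call (0.80 ± 0.36, adjusted p = 0.14). LE was below S by a fitted log2 value of -1.25 ± 0.38 (adjusted p = 0.0065), a call that was lost when gilt C128, C78, P139 or P43 was left out, with values of -1.17, -1.01, -0.95 and -1.13. Exons of TEK overlap those of another gene, on the opposite strand, that was detectable in no compartment.

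FLT4, the VEGFC receptor, was 2.12 to 79.5 CPM in BV, 3.28 to 44.0 CPM in S and 0.683 to 12.1 CPM in LE. In GE 4 of the 7 libraries had no FLT4 read, and the highest had 2.75 CPM. A floor of 3 counts over a group came to 0.161 CPM for the cyclic and 0.245 CPM for the pregnant libraries. BV and S did not differ detectably (-0.23 ± 0.48, adjusted p = 0.80).

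The co-receptor NRP1 had the highest mean per kilobase of all 10 genes in BV (70.3 CPM per kb) and S (56.0). It was 338 to 674 CPM in BV, 211 to 631 CPM in S, 34.8 to 237 CPM in LE and 10.1 to 40.1 CPM in GE, and was called as higher in BV than LE (1.79 ± 0.33, adjusted p = 8.3e-05) and lower in LE than S (-1.49 ± 0.34, adjusted p = 0.00065). NRP2 was 38.3 to 80.5 CPM in BV, 18.8 to 38.5 CPM in S, 5.62 to 57.6 CPM in LE and 0.808 to 3.15 CPM in GE. NRP2 was higher in BV than S in all 8 gilts (1.06 ± 0.29, adjusted p = 0.016), and was called as higher in BV than LE (1.48 ± 0.30, adjusted p = 0.00022).

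Counted over the 10 genes, 5 were called as higher in BV than LE (ANGPT1, ANGPT2, TEK, NRP1 and NRP2) and 1 as lower (VEGFA), where 52.3% of 12685 genes were called, 24.5% as higher in BV and 27.8% as higher in LE. All 10 were called as higher in BV than GE (59.6% of genes called in either direction, 29.6% as higher in BV and 29.9% as higher in GE), and all 10 as higher in S than GE (60.3% called, 31.5% as higher in S and 28.8% as higher in GE). Of the 9 tested between LE and GE, 8 were called, all higher in LE (42.6% of genes called, 25.9% as higher in LE and 16.6% as higher in GE). Between LE and S, VEGFA was called as higher in LE and ANGPT1, TEK and NRP1 as lower (53.2% of genes called, 28% as higher in LE and 25.3% as higher in S). The median log2 difference of the 10 genes was 1.39 for BV against LE and 4.92 for BV against GE, beside -0.07 and -0.04 over all genes tested.

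**Figure D2:**
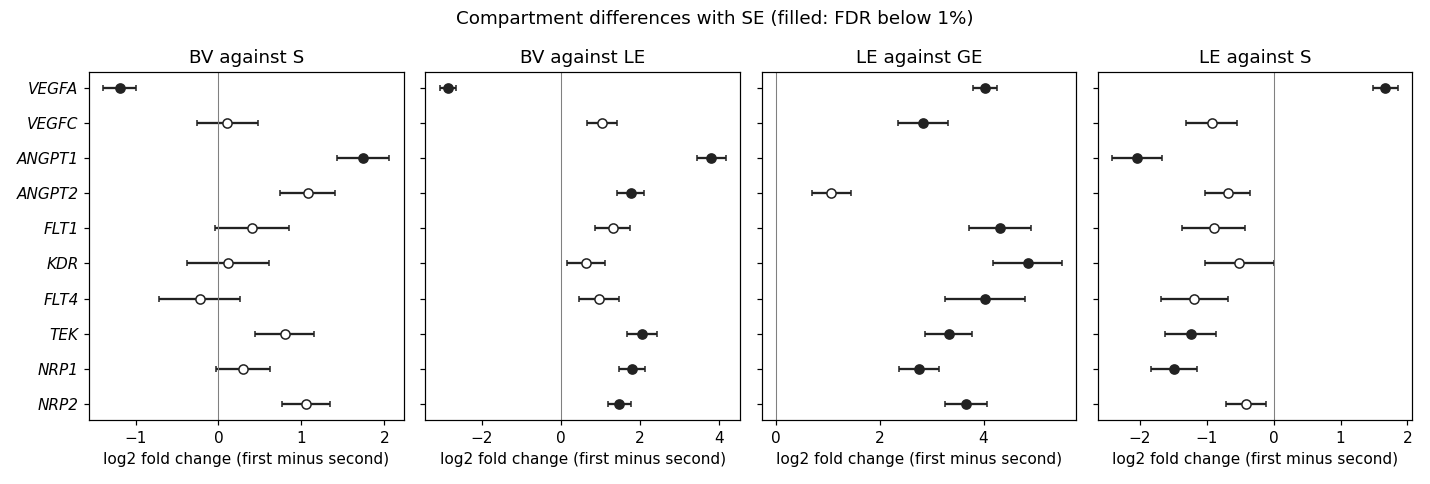
Fitted log2 fold changes (x axis, first minus second compartment) with SE for each gene (y axis) in 4 of the 6 comparisons, with filled points for calls at an FDR under 1%. VEGFA lies on the opposite side of 0 from the other genes in BV against LE and in LE against S, and ANGPT1 is farthest to the right in BV against S and BV against LE.

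The order of the compartments was that of the endothelial markers for most receptors. Over the 31 libraries Pearson's r of log2(CPM + 0.5) was 0.97 between FLT1 and KDR, 0.98 between FLT1 and TEK, 0.95 between KDR and TEK and 0.97 between NRP1 and TEK. VEGFA correlated less with the receptors (0.52 with KDR, 0.43 with FLT1 and 0.35 with TEK). These values describe 31 libraries that come from 8 gilts and differ chiefly by compartment. The profiles most like each gene, among 12121 candidates, were those of PTPRB, SHE and EMCN for FLT1 (r = 0.99 for PTPRB), CD34, PLVAP and CYYR1 for KDR (0.98 for CD34), ARHGAP31, ELK3 and ENG for TEK (0.99 for ARHGAP31) and PCDH12, SOX18 and CXCL12 for FLT4 (0.90 for PCDH12). EMCN, CD34, PLVAP and ENG are known as endothelial surface proteins. ARHGAP31 also led for NRP1 (0.98), followed by RBMS3 and LRRC8C, and NRP2 was most like CD99, ASAP1 and PIEZO1 (0.94 for CD99). Among the ligands, VEGFC was most like CALCRL, SH3BP4 and ESAM (0.96 for CALCRL), ANGPT2 most like RASGRP2, LRRC32 and BST1 (0.90 for RASGRP2), ANGPT1 most like SGCD, CFL2 and LOXL1 (0.92 for SGCD) and VEGFA most like LOC106504420, RNF152 and SRD5A1 (0.95 for LOC106504420).

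**Figure D3:**
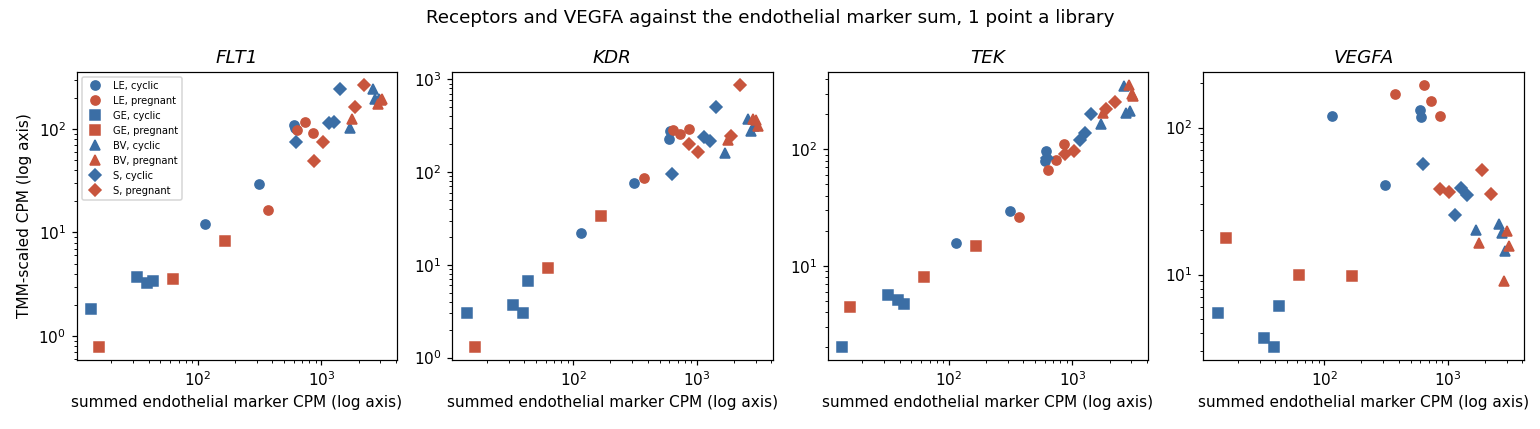
FLT1, KDR, TEK and VEGFA (y axis, TMM-scaled CPM, log axis) against the summed CPM of 10 endothelial markers (x axis, log axis) in each library, with the shape for the compartment and the colour for the group. The receptors rise with the marker sum over all 4 compartments, and the VEGFA points of LE lie above those of BV, which have the highest marker sums.

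The second question was whether pregnancy changed these genes within a compartment. No member passed the threshold in any compartment in the quasi-likelihood test, which was an FDR of 1% in LE and the same unadjusted p (0.00033) in GE, BV and S. That threshold took 3.32% of all genes of LE, 0.748% for GE, 1.86% for BV and 0.293% for S. An FDR under 5% within each compartment, which also took no member, was met by 10.7%, 1.86%, 8.63% and 0.0335% of genes. DESeq2 called 11.2%, 6.64%, 8.5% and 2.6% of genes and 1 member (VEGFA in GE). The robust GLM of edgeR, the study's own test, called 11.8%, 6.66%, 11% and 3.16% and 2 members (VEGFA in GE and ANGPT1 in BV). At an unadjusted p under 0.05 the members numbered 2 of 9 in LE (26.9% of all genes), 1 of 5 for GE (23%), 3 of 10 for BV (28.5%) and 1 of 10 for S (14.5%). Pregnant and cyclic values did not overlap for 1 of 9 members in LE, 2 of 5 for GE, 2 of 10 for BV and 0 of 10 for S, beside 19.4%, 22.9%, 18.2% and 8.81% of all genes. The smallest unadjusted p-values were those of VEGFA in GE, VEGFC in BV, FLT4 in LE and ANGPT1 in BV.

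**Figure D4:**
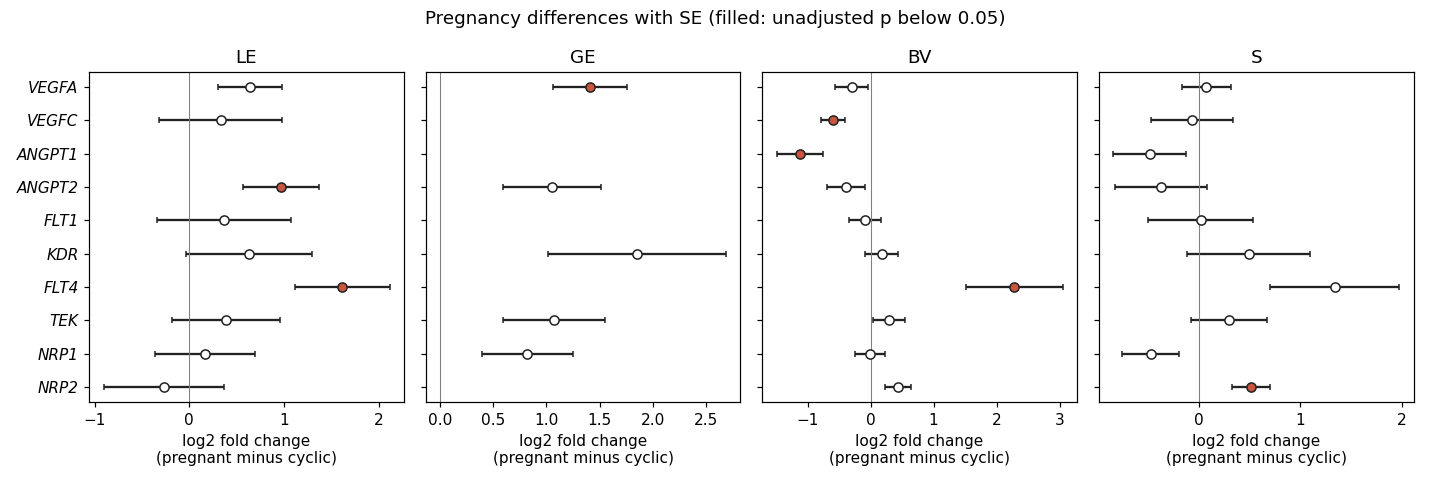
Fitted log2 fold changes (x axis, pregnant minus cyclic, a separate scale for each compartment) with SE for each detectable gene (y axis), with filled points for an unadjusted p under 0.05. In GE the 5 detectable genes lie above 0, and in BV VEGFC and ANGPT1 lie below 0 and FLT4 above.

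VEGFA in GE was 3.67, 3.23, 5.45 and 6.15 CPM in the cyclic gilts C128, C40, C42 and C78, and 9.84, 17.8 and 9.86 CPM in the pregnant gilts P139, P39 and P43. Every pregnant value lay above every cyclic one. Pregnancy differed from the cycle by 1.41 ± 0.35 on the log2 scale (unadjusted p = 0.0038, adjusted p = 0.078). VEGFA in GE was called by DESeq2 (1.43, adjusted p = 0.011) and by edgeR's robust GLM (1.41, adjusted p = 0.0069). Leukocyte markers moved with these GE groups: the sum of 5 of the 6 markers was 18.8 to 25.7 CPM without and 71.3 to 111 CPM with pregnancy, without overlap. The quasi-likelihood test called none of the 3 that were detectable (PTPRC, CD14 and CSF1R), while both DESeq2 and the robust GLM called all 3, and CD3E, AIF1 and NKG7 were below the filter. The part of leukocytes in the VEGFA values of GE was not tested. In LE only P39 of the pregnant gilts lay within the cyclic range of VEGFA. The means there were 102 ± 41.3 CPM (SD, n = 4) for the cyclic and 159 ± 31.8 CPM (SD, n = 4) for the pregnant group (log2 difference 0.64 ± 0.34, adjusted p = 0.26). In BV the difference was -0.30 ± 0.26 (adjusted p = 0.47) and in S 0.08 ± 0.25 (adjusted p = 0.92).

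Whether the pregnancy effect on VEGFA differed between compartments was tested by the interaction of compartment and status, where 2.68% of 9727 genes were called at an FDR of 1%. VEGFA had an adjusted p of 0.042, short of that threshold and past one of 5%. The share of all genes past 5% is not given here. The other 4 members tested had adjusted p-values between 0.32 and 0.89. Between LE and BV the VEGFA effects differed by 1.05 ± 0.39 (adjusted p = 0.099). No member passed at 1% between LE and BV (3.05% of genes called), LE and GE (1.29%) or BV and S (0%).

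ANGPT1 in BV was 36.3, 48.0, 33.2 and 50.6 CPM in cyclic gilts C128, C40, C42 and C78, and 9.30, 29.9, 26.4 and 10.4 CPM in pregnant gilts P139, P39, P41 and P43. All pregnant values lay below all cyclic ones. Their log2 difference was -1.13 ± 0.37 (unadjusted p = 0.012, adjusted p = 0.084), and the robust GLM called it (-1.17, adjusted p = 0.0043), while DESeq2 did not. In S the ANGPT1 difference was -0.48 ± 0.36 (adjusted p = 0.58). The smooth muscle and pericyte marker sum moved with these BV groups (6045 to 17318 CPM without and 1615 to 7872 CPM with pregnancy). In 3 of the 4 pregnant BV libraries that sum lay below every cyclic one (1615 to 2974 CPM), and in P139, which had the lowest ANGPT1, it was 7872 CPM. Of the 10 smooth muscle and pericyte markers in BV, 1 had a difference above 0, and their median log2 difference was -1.05 (0.0018 over all genes). The robust GLM called 7 of them (11% of all genes), DESeq2 called 2 (8.5%) and the quasi-likelihood test called 0. The part of smooth muscle cells and pericytes in the ANGPT1 values was not tested.

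VEGFC in BV was 50.4, 38.1, 47.7 and 49.3 CPM in cyclic gilts C128, C40, C42 and C78, and 37.6, 28.0, 22.2 and 33.4 CPM in pregnant gilts P139, P39, P41 and P43. The groups did not overlap, with a narrow gap. Between them the log2 difference was -0.60 ± 0.19 (unadjusted p = 0.00996, adjusted p = 0.075), and no other tool called it. VEGFC in LE (0.33 ± 0.65) and S (-0.06 ± 0.40) overlapped between groups, and in GE, where it was below the filter, the means were 2.17 ± 2.21 CPM (SD, n = 4) without and 3.72 ± 0.514 CPM (SD, n = 3) with pregnancy.

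ANGPT2 in LE was 22.5, 24.7, 23.4 and 9.56 CPM in cyclic gilts C128, C40, C42 and C78, and 16.7, 62.7, 40.7 and 35.2 CPM in pregnant gilts P139, P39, P41 and P43. Only pregnant gilt P139 fell within the cyclic range. For ANGPT2 in LE the log2 difference was 0.97 ± 0.40 (unadjusted p = 0.037, adjusted p = 0.15). Relative to the endothelial marker sum of the same library the ANGPT2 difference in LE was 0.01 (exact two-sided permutation p = 1), a ratio that was added after the marker sums in LE had been seen. ANGPT2 in GE was 3.24 to 12.5 CPM without and 13.4 to 28.4 CPM with pregnancy, and these ranges were separate (log2 difference 1.05 ± 0.46, adjusted p = 0.22), beside the separate leukocyte marker sums of the same libraries, whose part was not tested. In BV (-0.39 ± 0.30) and S (-0.37 ± 0.45) the groups overlapped.

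FLT4 in LE was 3.48, 3.93, 3.71 and 0.683 CPM in cyclic gilts C128, C40, C42 and C78, and 4.37, 12.1, 8.57 and 10.9 CPM in pregnant gilts P139, P39, P41 and P43. All pregnant values lay above the cyclic ones, and the log2 difference was 1.62 ± 0.50 (unadjusted p = 0.010, adjusted p = 0.070). The ratio of FLT4 to the endothelial marker sum in LE was higher in pregnant gilts by 0.67 on the log2 scale (exact two-sided permutation p = 0.057, adjusted p = 0.29 over 5 such ratios). In BV, FLT4 was 8.07, 5.69, 7.097 and 2.12 CPM in cyclic gilts C128, C40, C42 and C78, and 79.5, 18.2, 9.19 and 7.05 CPM in pregnant gilts P139, P39, P41 and P43. The fitted log2 difference of 2.28 ± 0.77 (adjusted p = 0.092) rested on gilt P139 for its size, since it was 0.98 (adjusted p = 0.18) without that library. The S values overlapped (1.34 ± 0.63, adjusted p = 0.37). In GE the pooled FLT4 counts were 2 in cyclic and 17 in pregnant gilts, a CPM ratio of 12.9 with a 95% counting interval of 3.07 to 115. Of these 17 reads 14 came from P139, 3 from P39 and 0 from P43. That interval covers counting error only and not the spread between gilts. The capture of P139 also had the highest endothelial marker sum of GE (168 CPM), whose part was not tested.

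FLT4 was also set beside the summed CPM of PROX1 and LYVE1, the 2 of 4 lymphatic markers that were detectable. That sum was 262 CPM in pregnant BV of gilt P139 and 10.6 to 28.9 CPM in the other 7 BV libraries, and 186 CPM in pregnant S of gilt P39, which had the highest FLT4 of S (44.0 CPM). Pregnant S of gilt P139 had a lymphatic sum of 1.40 CPM with FLT4 at 29.5 CPM and KDR at 870 CPM. In LE the lymphatic sum was 0 to 3.18 CPM. The part of lymphatic cells in the FLT4 values was not tested.

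**Figure D5:**
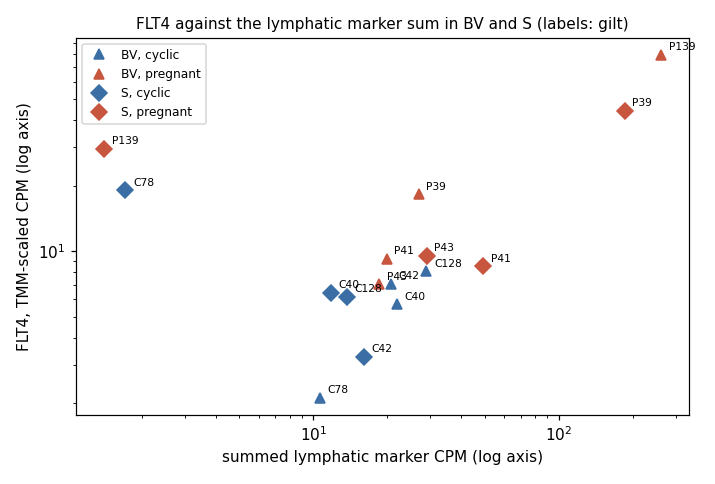
FLT4 (y axis, TMM-scaled CPM, log axis) against the summed CPM of PROX1 and LYVE1 (x axis, log axis) in the 16 BV and S libraries, labelled by gilt. The 2 libraries with the highest marker sums (BV of gilt P139 and S of gilt P39) have the highest FLT4, and S of gilts P139 and C78 have the lowest marker sums beside FLT4 of 29.5 and 19.0 CPM.

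FLT1, KDR, TEK and NRP1 were called for pregnancy in no compartment by the quasi-likelihood test, DESeq2 or the robust GLM. With n = 3 or 4 a group, a missing call does not show that a gene stayed the same. In BV the means in cyclic and pregnant gilts were 183 ± 58.5 and 171 ± 31.8 (SD, n = 4) CPM for FLT1, 282 ± 91.9 and 317 ± 70.0 for KDR, 235 ± 81.5 and 286 ± 63.3 for TEK and 519 ± 143 and 513 ± 126 for NRP1. The log2 differences in BV lay between -0.09 and 0.29, each with an SE of 0.24 to 0.26. In S, KDR had the largest difference of these genes (0.49 ± 0.61), and it was -0.36 without pregnant gilt P139. In GE the differences of KDR (1.85 ± 0.84), TEK (1.07 ± 0.48) and NRP1 (0.82 ± 0.43) were above 0 with overlapping groups and adjusted p-values of 0.23 to 0.29, beside endothelial marker sums of 13.7 to 43.5 CPM without and 16.0 to 168 CPM with pregnancy. The part of endothelial RNA in these GE values was not tested. KDR was 34.0 CPM in pregnant GE of gilt P139, against 1.31 CPM for P39 and 9.26 CPM for P43, and its difference fell to 0.34 without P139. Relative to the endothelial marker sum in BV and S, none of the 10 ratios of FLT1, KDR, TEK, FLT4 and ANGPT2 had an exact two-sided permutation p under 0.11, where 0.029 is the smallest that 4 against 4 allow.

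NRP2 in S was 30.5, 21.6, 23.7 and 18.8 CPM in cyclic gilts C128, C40, C42 and C78, and 31.8, 34.9, 29.5 and 38.5 CPM in pregnant gilts P139, P39, P41 and P43. Only cyclic gilt C128 reached the pregnant range. The log2 difference was 0.51 ± 0.19 (unadjusted p = 0.022, adjusted p = 0.26), that in BV was 0.44 ± 0.21 (adjusted p = 0.20), and that in LE was -0.27 ± 0.64. The log2 ratio of NRP1 to NRP2 within each S library was 4.02 to 5.03 in cyclic and 2.58 to 3.92 in pregnant gilts. This difference of -1.05 had an exact two-sided permutation p of 0.029, the smallest the design allows, and 0.31 after adjustment over 11 within-library ratios. The other 10 ratios, of ANGPT2 to ANGPT1, FLT1 to KDR, VEGFA to VEGFC and NRP1 to NRP2 elsewhere, had p-values of 0.057 to 1.

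Other genes of the pathway were read from fixed lists. Of the 6 other ligands and receptors, 1 was called. TIE1, the orphan partner receptor of TEK, rose in pregnant BV from 36.6 ± 3.76 (SD, n = 4) to 76.4 ± 9.46 CPM (SD, n = 4), a log2 difference of 1.07 ± 0.14 (adjusted p = 0.013), and the call held without any one library. Its lowest pregnant value in BV was 68.3 CPM and its highest cyclic value 41.2 CPM. TIE1 differences in LE (0.83 ± 0.26, adjusted p = 0.071) and S (0.73 ± 0.48, adjusted p = 0.52) were not called. PGF, placental growth factor and a ligand of FLT1, ranged in LE from 0.571 to 1.97 CPM without and from 3.57 to 18.3 CPM with pregnancy. Its log2 difference of 3.09 ± 0.58 had an adjusted p of 0.011 and missed the 1% threshold, while DESeq2 (3.12) and the robust GLM (3.16) called it. VEGFB, another FLT1 ligand, averaged 19.5 ± 1.73 CPM (SD, n = 4) without and 33.1 ± 5.12 CPM (SD, n = 3) with pregnancy in GE, with a difference of 0.76 ± 0.17 (adjusted p = 0.063) that DESeq2 called (0.77, adjusted p = 0.0095) and the robust GLM did not (0.76, adjusted p = 0.037). VEGFD, a second ligand of FLT4, was highest in S (mean 73.3 CPM) and BV (57.2 CPM) and differed by at most 0.82 ± 0.53 between groups, in LE. ANGPT4, a further TEK ligand, averaged 24.5 CPM in BV, 6.72 CPM in S and under 1.1 CPM in LE and GE. PTPRB, a phosphatase that acts on TEK, differed by -0.13 ± 0.22 in BV.

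Among 8 oxygen-sensing genes, HIF3A was called in BV, where it rose from 43.3 ± 3.52 (SD, n = 4) to 75.8 ± 10.8 CPM (SD, n = 4), by 0.82 ± 0.14 (adjusted p = 0.016). That call was lost when any of 7 of the 8 libraries was left out, with differences of 0.73 to 0.88. HIF1A, a factor that induces VEGFA under hypoxia, was called in no compartment by the quasi-likelihood test (-0.68 ± 0.15 in GE, adjusted p = 0.060, and -0.08 ± 0.26 in LE, adjusted p = 0.88). DESeq2 called it as lower in pregnant GE (-0.67, adjusted p = 0.0011), and the robust GLM called it in no compartment. EPAS1 had the highest mean of this list in LE (1631 CPM, against 389 CPM for HIF1A). It was called in no compartment by the quasi-likelihood test. The quasi-likelihood test called no gene in any compartment from the lists of receptor signalling (11 genes), endothelial genes induced by VEGF or of tip cells (10 genes), angiogenesis inhibitors (7 genes) or neuropilin ligands and plexins (12 genes). At an unadjusted p under 0.05 these lists had 2 to 4, 0 to 2, 0 to 2 and 0 to 5 genes a compartment. The other tools made calls in each list, and their shares of all genes in each compartment are given above. For receptor signalling in LE both tools called 2 genes (PLCG1 and FOXO1), and in BV DESeq2 called 1. Of the genes induced by VEGF or of tip cells, the robust GLM called 2 in BV and 1 in S, and DESeq2 called 1 in BV and 1 in LE. Among the inhibitors DESeq2 called 1 (COL18A1, in GE). From the neuropilin list the robust GLM called 5 of 10 detectable genes in BV, 4 of 10 in LE and 2 of 9 in GE. Over all genes it called 11%, 11.8% and 6.66%. DESeq2 called 3 in BV and 1 in LE, beside 8.5% and 11.2% of all genes. SEMA3C, a class 3 semaphorin, was called as lower in pregnant BV by both (-1.46 in the quasi-likelihood fit). In the same list SEMA3D, a semaphorin, was called by the quasi-likelihood test for an effect that differed between compartments (adjusted p = 0.0035). From cyclic to pregnant gilts its mean went from 52.1 ± 26.8 to 19.3 ± 5.56 CPM in BV and from 69.0 ± 68.5 to 143 ± 55.9 CPM in LE (SD, n = 4). By the quasi-likelihood test for pregnancy, CDH1 and CLDN3 (epithelium) were called as higher in pregnant BV, by 3.77 ± 0.44 and 3.34 ± 0.57, beside the BV results above. KRT8 (epithelium) was called as lower in pregnant LE, where 4 of the 9 epithelial markers had differences above 0. Their median log2 difference was -0.12 (-0.0073 over all genes). ACTA2 (smooth muscle) was called as lower in pregnant S, where 5 of the 10 smooth muscle and pericyte markers lay above 0. The median there was -0.023 (0.0012 over all genes). No marker of endothelium, lymphatic endothelium, fibroblasts or leukocytes was called. These 4 lists had 0 to 2, 0 to 1, 0 to 2 and 0 to 3 markers a compartment at an unadjusted p under 0.05. Detectable were 4 to 10, 0 to 2, 6 and 2 to 5 of them, and the shares of all genes are those above. Both DESeq2 and the robust GLM called the 3 leukocyte markers in GE given above, EGFL7 (endothelium) in BV and PROX1 (lymphatic endothelium) in S, and the robust GLM also called 1 leukocyte marker in BV.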

How the data were processed

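RNA from laser-captured LE, GE, BV and S of individual gilts was made into libraries with the Ovation SoLo system. The authors trimmed reads with Trim Galore, removed 5 bases from the read start, mapped with Hisat2 to Sscrofa 11.1, cleaned out PCR duplicates with nudup and used QuasR to count the reads of each NCBI gene. Versions are not given in the sources used here. The deposited values are whole-number counts per gene and library, without normalization, with 1 table of all 30185 genes per compartment and another that the authors had filtered on low CPM (LE 12002 genes, GE 11905, BV 11096, S 11935). The filtered counts were checked to equal those of the full tables.

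Pregnant and cyclic libraries were compared in each compartment with edgeR 4.0.16 in R 4.3.3 (TMM, quasi-likelihood F test, Benjamini-Hochberg adjustment over all detectable genes). Following the study, the largest p called at an FDR of 1% in LE was the threshold in the other compartments. The study itself tested with edgeR's robust GLM, which stands here among the alternatives. Compartments and interactions were tested in 1 quasi-likelihood fit of 13887 genes over 31 libraries with the gilt as block. The pairing comes from the animals: libraries of the same gilt deviated together (median r = 0.17 over 45 pairs of compartments, against -0.05 over 135 pairs of different gilts). Ratios within libraries used CPM + 0.5 and an exact two-sided permutation test. Exon length for CPM per kb is the union of exons in NCBI Annotation of Sscrofa11.1. Alternatives were DESeq2 1.42.0, edgeR's robust GLM, RLE scaling, library totals, no filter on low counts, an FDR of 5%, no block, single status groups, a pseudocount of 2 and each library or gilt left out. The scripts were tested on simulated data. Intervals and floors cover counting error only. No 2 replicates differed by less than sampling noise. The text names all 10 members and the list of other ligands and receptors. Also named are genes of the other lists that were called or rank among the 4 highest of a list by mean CPM (HIF1A and EPAS1). The 3 genes most like each member (mean CPM of at least 5) are named too. Genes of the lists called by DESeq2 or the robust GLM alone were named after their values were seen. The members and lists were chosen with earlier results of these data known.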

Additional observations from a re-analysis of the deposited data

Results flagged for a closer look

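In 6 of the 70 groups of 4 libraries, 1 library stood far from the other 3 by Dixon's criterion. Chance flags about 1 in 20 independent groups of normally distributed values. That rate need not hold here, where CPM of genes from the same libraries were used. VEGFA was 40.9 CPM in LE of cyclic gilt C128, against 117 CPM in the next library. In LE of cyclic gilt C78, ANGPT2 was 9.56 CPM against 22.5 CPM and FLT4 was 0.683 CPM against 3.48 CPM in the next library. That capture also had the lowest endothelial marker sum of LE (116 CPM). KDR was 870 CPM in S of pregnant gilt P139, against 242 CPM in the next library, beside the highest endothelial marker sum of S (2220 CPM). FLT4 was 79.5 CPM in BV of pregnant gilt P139, against 18.2 CPM, beside the highest lymphatic marker sum of BV (262 CPM). FLT4 was 0.424 CPM in GE of cyclic gilt C78, where the other 3 cyclic libraries had no read, which is a difference of 2 reads. The part of these marker cells in the values was not tested.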

How the results depend on the processing

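With the quasi-likelihood test, the count of members called for pregnancy was 0 in each compartment under RLE scaling, without the filter, at an FDR of 5% within the compartment and with any library left out. It was 1 in GE with DESeq2 (VEGFA), 1 in GE with the robust GLM (VEGFA) and 1 in BV with the robust GLM (ANGPT1). The interaction over compartments gave 1 member at an FDR of 5% (VEGFA), and the share of all genes at that FDR is not given here. Between BV and S the count of 2 became 0 in cyclic gilts only, 0 in pregnant gilts only and 2 to 4 when a gilt was left out. Between LE and S the count of 4 became 2 in cyclic and 2 in pregnant gilts. The shares of all genes called in these fits with fewer gilts are not given here. Without the replicate block, KDR in BV against S turned from 0.11 to -0.063, and the block changed 2 other calls (FLT1 in BV against LE and ANGPT2 in LE against GE, both called without it). Signs also turned for VEGFC (-0.20) and FLT4 (0.067) in BV against S in pregnant gilts only, for FLT1 in S with the robust GLM (-0.016), and for ANGPT2 over endothelial markers in LE with a pseudocount of 2 (-0.038).

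Leaving out 1 gilt or library turned the sign of small differences that were not called. For BV against S the ranges were -0.59 to 0.23 for FLT4, -0.094 to 0.43 for KDR and -0.082 to 0.25 for VEGFC. For pregnant minus cyclic in LE they were -0.16 to 0.50 for NRP1, -0.79 to 0.46 for NRP2 and -0.041 to 0.80 for VEGFC. In BV they were -0.29 to 0.077 for FLT1, -0.020 to 0.35 for KDR, -0.16 to 0.15 for NRP1 and -0.020 to 0.49 for PGF, and in GE -0.15 to 0.64 for PGF. In S they were -0.66 to 0.12 for ANGPT2, -0.51 to 0.44 for FLT1, -0.36 to 1.02 for KDR, -0.084 to 0.32 for VEGFA and -0.43 to 0.19 for VEGFC. Ratios to endothelial markers ranged from -0.17 to 0.21 for ANGPT2, -0.56 to 0.049 for FLT1 and -0.059 to 0.34 for KDR in LE, and from -0.30 to 0.26 for KDR in S. NRP1 over NRP2 in LE ranged from -0.19 to 1.09, and VEGFA over VEGFC from -0.38 to 0.92 in LE and -0.057 to 0.56 in S. The cause of these changes was not tested. Pregnancy differences in TIE1, PGF, VEGFB and HIF3A were recomputed after their values had been seen. In GE, where 5 of the 10 genes fell below the authors' filter, library totals were not lower than elsewhere (median 4134102 counts, against 2807458 in BV), and few counts stand behind those genes.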
